A study of Mus musculus with 2 samples.

Results

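The genes described here encode fibronectin, periostin and 7 other secreted matrix-associated glycoproteins, most of them called matricellular because they act on cells from within the matrix without being its main structural material. The 9 genes, Fn1, Postn, Sparc, Sparcl1, Thbs1, Tnc, Spp1, Fstl1 and Smoc1, were chosen by name, with earlier results of these data known. They are 9 of the 43346 mouse gene rows in the deposited tables and 9 of 21461 nuclear protein-coding genes. Hearts of mouse embryos at embryonic day 16.5, strain B6NCrl, males and females mixed, were pooled without any treatment, and total RNA of each pool was sequenced. There is 1 group with 2 libraries, numbered 1 and 2. Replicate 2 held hearts of 41 embryos, and for replicate 1 the labels state a pool without its size. Both libraries carry the same donor identifier and no litter or dissection day is given, so the spread between them may be technical in part.

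Fibronectin is assembled by cells into fibrils through integrin receptors and forms an early matrix on which collagen and other proteins are laid down. Matricellular proteins such as periostin, SPARC, thrombospondins, tenascin C and osteopontin bind collagen, fibronectin, growth factors and integrins. They are known for their part in the developing heart in the valves, the fibroblasts of the wall, the epicardium and the vessels. Several of them, with fibronectin foremost, are made in alternatively spliced forms, and the spliced segments of Fn1, Postn and Tnc are a classic difference between embryonic and adult matrix.

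Depth was 37160624 estimated counts in replicate 1 and 40360242 in replicate 2, with 1.62% and 3.41% on spike-in RNAs. Levels are given as deposited in TPM, the abundance of transcripts corrected for their length and scaled to a fixed total, with the mean ± SD over the libraries (n = 2). The credibility interval of each TPM is the authors' own, of a level that the file headers do not state, and covers counting and read assignment within 1 library only. The tissue label was checked against its markers: the 5 cardiomyocyte markers summed to 32734 and 30151 TPM in replicates 1 and 2. Markers of neighbouring organs differed between the libraries. The 4 lung epithelium markers, led by the surfactant gene Sftpc (883 and 96.7 TPM), summed to 941 TPM in replicate 1 and 102 TPM in replicate 2. The 4 thymocyte markers summed to 37.4 and 99.5 TPM. None of these 8 genes was at 0 in either library, and their part in the differences described below was not tested.

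All 9 genes reached 1 TPM in both libraries, as did 59.1% of the 21474 protein-coding genes. Their levels spanned a wide range, from Sparc at 1633 TPM ± 169 down to Smoc1 at 6.26 TPM ± 0.813. The median of the 9 was 104 TPM, and that of the 12987 protein-coding genes that averaged 1 TPM or more was 15.3 TPM. Since the 9 were chosen with earlier results known, these medians do not compare matricellular genes as a class with other genes. Together the 9 genes held 0.281% of all TPM in replicate 1 and 0.252% in replicate 2, and Sparc alone made up 62.5% and 60.1% of their sum. In RNA from whole tissue, fewer cells of a type and less RNA per cell cannot be told apart.

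**Figure D1:**
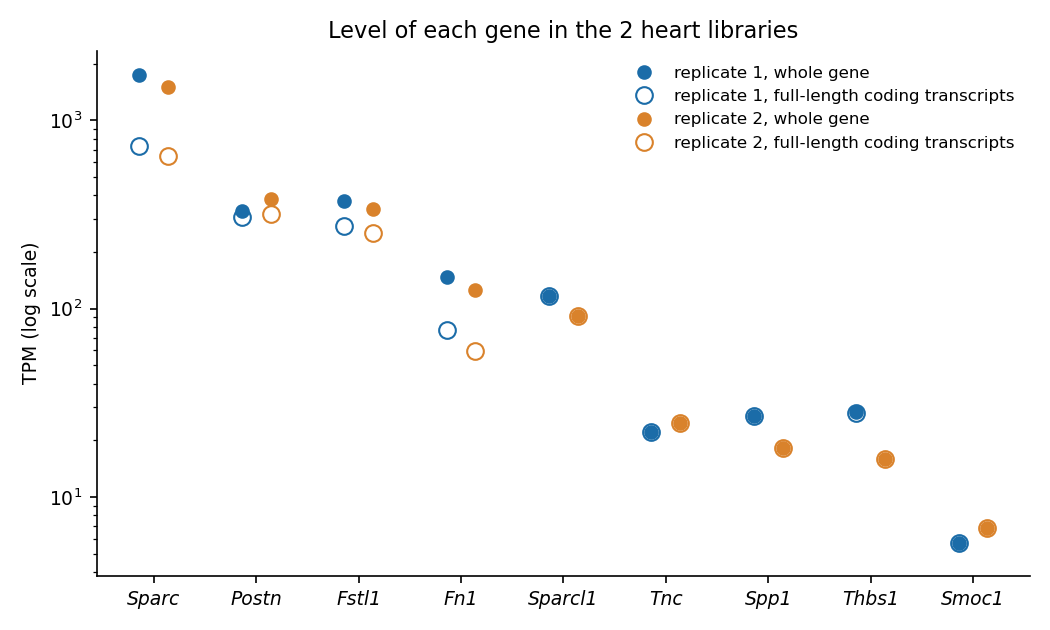
TPM on a log axis for each of the 9 genes in replicate 1 (blue) and replicate 2 (orange). Filled points are the whole gene and open points the sum of its full-length coding transcripts only; the open points lie well under the filled ones for Sparc and Fn1, and Thbs1 has the widest gap between the libraries.

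Sparc (ENSMUSG00000018593.8; mm10 chr11:55394500-55423183, minus strand) encodes a collagen-binding, calcium-binding glycoprotein also called osteonectin. It measured 1752 TPM in replicate 1 and 1513 TPM in replicate 2, from 58632 and 57063 estimated counts. Replicate 1 was the higher, by a log2 ratio of replicate 2 over replicate 1 of -0.21. Sparc ranked 40th of the 21461 nuclear protein-coding genes by mean TPM. The deposited intervals, 1687 to 1738 and 1461 to 1508 TPM, leave out the gene's own TPM in both libraries. Its relative Sparcl1 (hevin; ENSMUSG00000029309.3; chr5:104079111-104113733, minus strand) measured 117 and 91.4 TPM, again with replicate 1 higher (log2 ratio -0.36). The interval of Sparcl1 in replicate 1, 112.5 to 117.1 TPM, also leaves out that gene's own TPM of 117.3. Sparc stood 15.7-fold over Sparcl1 on the mean log2 scale, 14.9-fold in replicate 1 and 16.5-fold in replicate 2.

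Postn (periostin; ENSMUSG00000027750.12; chr3:54361109-54391037, plus strand), a fasciclin-domain protein of valve and fibroblast matrix that promotes collagen crosslinking, measured 332 TPM in replicate 1 and 382 TPM in replicate 2. Here replicate 2 was the higher, with intervals of 319 to 333 and 367 to 384 TPM. Fstl1 (ENSMUSG00000022816.7; chr16:37776873-37836514, plus strand), a secreted follistatin-like glycoprotein known from epicardium and mesenchyme, measured 374 and 338 TPM. The means of Postn and Fstl1, 357 TPM ± 35.7 and 356 TPM ± 25.2, lie side by side, but their order turned between the libraries: Fstl1 was higher in replicate 1 and Postn in replicate 2. Their mean log2 ratio was 0.00 ± 0.25 (SD, n = 2), so they did not differ beyond the spread.

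Fn1 (fibronectin; ENSMUSG00000026193.11; chr1:71585520-71653200, minus strand) measured 147 TPM in replicate 1 and 125 TPM in replicate 2, a mean of 136 TPM ± 15.5 from 20946 and 19949 counts. The intervals, 140.1 to 151 and 119.9 to 129 TPM, do not overlap, and replicate 1 was the higher. Tnc (tenascin C; ENSMUSG00000028364.11; chr4:63959785-64047015, minus strand), a hexameric glycoprotein of embryonic and injured tissue that modulates adhesion to fibronectin, measured 22.0 and 24.9 TPM. For Tnc replicate 2 was the higher, with intervals of 20.99 to 22.3 and 23.7 to 25.1 TPM.

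Spp1 (osteopontin; ENSMUSG00000029304.10; chr5:104435118-104441050, plus strand), an acidic phosphoprotein of bone that macrophages also secrete, measured 27.0 TPM in replicate 1 and 18.3 TPM in replicate 2. Its libraries stood apart, with intervals of 25.3 to 28.8 and 17.0 to 19.8 TPM. Thbs1 (thrombospondin 1; ENSMUSG00000040152.8; chr2:118111876-118127133, plus strand), a trimeric protein of platelets, endothelium and fibroblasts that can activate latent TGF-beta, measured 28.3 and 15.9 TPM. Its libraries had the largest ratio of the 9 genes, with intervals of 26.9 to 28.8 and 15.1 to 16.4 TPM. Smoc1 (ENSMUSG00000021136.9; chr12:81026808-81186414, plus strand), a SPARC-related calcium-binding protein that modulates BMP signalling, was the lowest of the 9 at 5.68 and 6.83 TPM. It rested on 509 and 680 counts, and replicate 2 was the higher.

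In the order of mean TPM (Sparc, Postn, Fstl1, Fn1, Sparcl1, Tnc, Spp1, Thbs1, Smoc1), neighbours were called different where the intervals were apart in both libraries in the same direction and the mean log2 ratio lay at least 2 SD from 0. No p-value was computed, since an exact two-sided sign-flip test over 2 libraries cannot go below 0.5. By this rule 5 of the 8 neighbouring pairs differed. Sparc stood 4.57-fold over Postn, Fstl1 2.62-fold over Fn1, Fn1 1.31-fold over Sparcl1, Sparcl1 4.41-fold over Tnc and Thbs1 3.37-fold over Smoc1. The step between Fn1 and Sparcl1 was the smallest of these (mean log2 ratio 0.39 ± 0.09), and it depends on which Fn1 transcripts are counted, as described with the transcripts. The 3 pairs that did not differ were Postn and Fstl1, Tnc and Spp1 (0.07 ± 0.52), and Spp1 and Thbs1 (0.07 ± 0.19). Among all 36 pairs, 32 differed, and Tnc and Thbs1 (0.14 ± 0.71) were the only further pair that did not. Tnc, Spp1 and Thbs1 thus form a group at 23.4 ± 1.99, 22.6 ± 6.17 and 22.1 ± 8.75 TPM whose order turned between libraries: Thbs1 was the highest of them in replicate 1 and Tnc in replicate 2.

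Between the libraries, 6 of the 9 genes were higher in replicate 1 and 3 (Postn, Tnc and Smoc1) in replicate 2. Among the same protein-coding genes, 61.8% were higher in replicate 1, so this split is close to the background. The median log2 ratio was -0.21 over the 9 genes and -0.06 over the 12987 protein-coding genes. The direction of each of the 9 genes was the same under the 5 other scalings tried. Credibility intervals were apart for 9 of 9 genes, against 30.0% of those protein-coding genes and 33.7% of the 8957 whose counts reached 500 in both libraries, as those of all 9 do. These intervals are narrow where counts are high: in replicate 1 the width was 2.89% of the TPM for Sparc and 17.0% for Smoc1.

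Thbs1 was the only one of the 9 past 1.5-fold on the scale of TPM + 0.1, where 7.38% of the protein-coding genes and 12.6% of all 14930 genes that averaged 1 TPM or more were. Of the 8957 more deeply counted protein-coding genes, 1.63% were. The log2 ratio of Thbs1 was -0.83, which is 1.77-fold higher in replicate 1, from 4315 and 2710 counts; 3.51% of the protein-coding genes were past 1.5-fold in that direction. Spp1 lay just short of the threshold at 1.47-fold (log2 ratio -0.56, from 947 and 712 counts). The other 7 genes had ratios between -0.36 (Sparcl1) and 0.26 (Smoc1). No gene of the 9 was 2-fold apart.

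**Figure D2:**
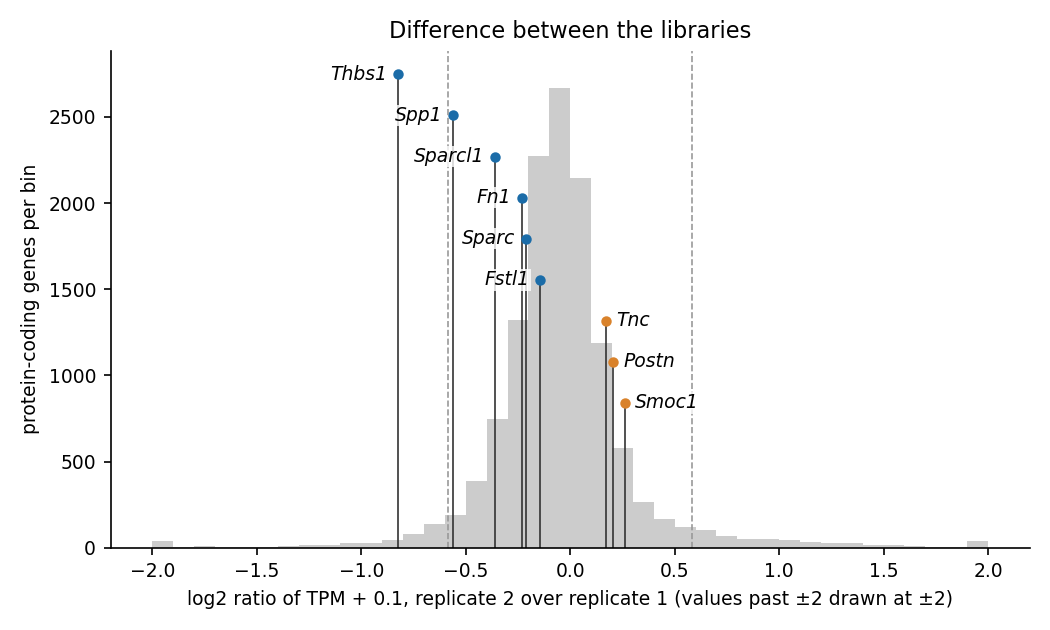
Histogram of the log2 ratio of TPM + 0.1, replicate 2 over replicate 1, for 12987 protein-coding genes (grey bars, genes per bin), with the 9 genes as marked lines and 1.5-fold in either direction dashed. Only Thbs1, at -0.83, lies outside the dashed lines, and Spp1, at -0.56, lies just inside.

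Markers of cells that are known sources of Thbs1 and Spp1 were set beside them. The 5 platelet and megakaryocyte markers summed to 42.1 and 40.2 TPM in replicates 1 and 2, with all 5 at 1 TPM or more in both. Of these, 4 were higher in replicate 1, as were 61.8% of protein-coding genes. Gp1bb was past 1.5-fold in that direction (4.17 and 2.59 TPM), but the intervals of all 5 overlapped between the libraries. The platelet chemokine Pf4, the highest of the 5 and most of their sum, measured 27.1 and 27.4 TPM. The 5 macrophage markers summed to 50.2 and 52.8 TPM, again with all 5 at 1 TPM or more, and 4 of the 5 were higher in replicate 2. The part of these cells in the differences of Thbs1 and Spp1 was not tested. The bone list was low: 0 of its 6 genes reached 1 TPM in both libraries, and Bglap2 was at 0. The sum was 1.44 and 1.86 TPM, most of it from Ibsp (0.860 and 1.35 TPM). The part of bone cells in the level of Spp1 was not tested. The 8 fibroblast markers summed to 2480 TPM in replicate 1 and 2053 TPM in replicate 2, with 6 of the 8 higher in replicate 1 and none at 0. Most of that sum lay on the collagen genes Col3a1 (952 and 741 TPM), Col1a1 (668 and 532 TPM) and Col1a2 (386 and 304 TPM). Dcn (241 and 262 TPM) and Dpt (72.2 and 76.5 TPM) were higher in replicate 2. Pdgfra (13.1 and 8.26 TPM), Tcf21 (56.75 and 41.4 TPM) and Lum (90.5 and 87.7 TPM) were higher in replicate 1. Pdgfra alone of the 8 was past 1.5-fold. The fibroblast sum, led by the collagens, was higher in replicate 1, as were 61.8% of protein-coding genes. The cardiomyocyte and endothelial sums were also higher in replicate 1, and the macrophage and epicardium sums were higher in replicate 2. With 2 libraries every sum falls on one side or the other, so a shared direction does not link it to any of the 9 genes. The part of fibroblasts in the differences of the 9 genes was not tested.

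The deposited transcript tables split each gene's TPM over its annotated transcripts. The 9 genes have 55 transcripts in the tables, of which 46 received counts and 34 are annotated protein-coding. A transcript is called full-length coding here where the annotation marks it protein-coding and flags neither end as incomplete, which holds for 28. The leading transcript was protein-coding in both libraries for 7 of the 9 genes, and for 9 of 9 when estimated counts were used in place of TPM. The exceptions were Sparc and Fn1. The division of reads among overlapping transcripts is the quantifier's estimate, and short transcripts gain TPM because it is a value per length.

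**Figure D3:**
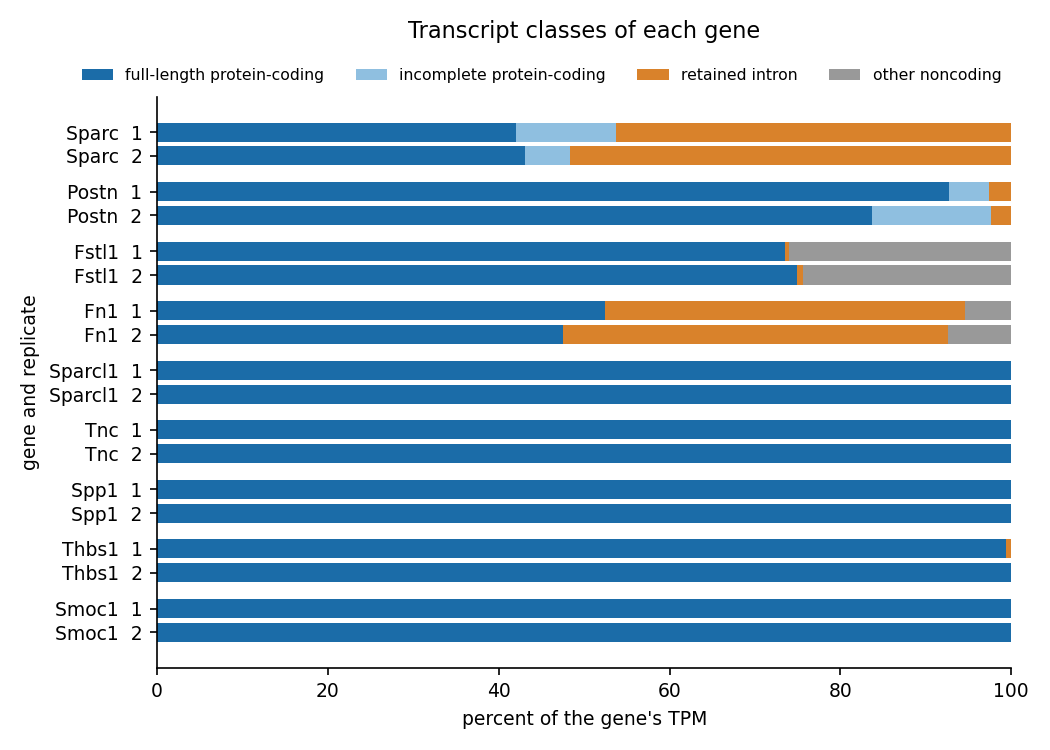
Percent of each gene's TPM on full-length protein-coding, incomplete protein-coding, retained-intron and other noncoding transcripts, 1 bar per gene and replicate. Sparc and Fn1 have large retained-intron parts (from 42.2% for Fn1 in replicate 1 to 51.7% for Sparc in replicate 2), Fstl1 has other noncoding parts of 26.0% and 24.4%, and Sparcl1, Tnc, Spp1 and Smoc1 are full-length coding throughout.

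For Sparc, the retained-intron transcript Sparc-205, of 741 nt, took 46.1% of the TPM in replicate 1 and 51.4% in replicate 2. It took 23.6% and 26.0% of the gene's counts, and 87.3% of its bases lie in exons of the full-length coding transcripts. Those coding transcripts, Sparc-201 and Sparc-202, summed to 736 and 651 TPM (694 ± 59.8), which still left Sparc the highest of the 9 genes. The incomplete coding transcript Sparc-206 held 11.7% and 5.26%. Sparc-201 and Sparc-202 differ in their coding region by a single optional codon at chr11:55407277-55407279, shown in capitals between spliced flanking bases because it is the only coding choice between the gene's full-length transcripts.
Sparc optional codon: ggcagcccctCAGcagactgaag
Transcripts with the codon held 57.9% of the full-length coding TPM in replicate 1 and 53.9% in replicate 2, or 45.2% and 48.0% when the incomplete Sparc-206, which skips it, was counted as well. The share was thus near an even split in both libraries under either count.

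For Fn1, the retained-intron transcript Fn1-202, of 4022 nt, took 29.5% of the TPM in replicate 1 and 33.8% in replicate 2, and the coding transcript Fn1-201, of 8315 nt, took 32.5% and 29.4%. Fn1-201 led in replicate 1 and Fn1-202 in replicate 2. All noncoding transcripts of Fn1 together took 47.6% and 52.5% of TPM, and 26.5% and 30.3% of counts, and 84.4% of the bases of Fn1-202 lie in exons of full-length coding transcripts. With full-length coding transcripts alone, Fn1 measured 77.1 and 59.6 TPM (68.3 ± 12.4), under the 104 TPM ± 18.3 of Sparcl1. The order of Fn1 and Sparcl1 therefore turned when noncoding transcripts were left out, an alternative chosen after seeing the data, and also with counts per kilobase of the longest coding transcript. For Fstl1 the full-length coding transcript Fstl1-201 held 73.5% and 74.9% of TPM, and the noncoding Fstl1-202, of 884 nt, held 20.9% and 19.5%.

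Fibronectin is built of repeated modules, and its pre-mRNA is spliced at an extra domain B (EDB), an extra domain A (EDA) and a variable region. EDB and EDA are each a whole exon that encodes 1 type III module, and both are known to be kept in embryonic tissue and mostly skipped in adult tissue and in plasma fibronectin. The exons are printed because the long coding transcripts of Fn1 differ by them. Capitals mark the segment and lower case the 10 spliced bases on either side, read from the GENCODE M21 transcripts on GRCm38, the same assembly as mm10. EDB is exon 25 of the 46 exons of Fn1-201 (273 nt, 91 codons; chr1:71613763-71614035, minus strand), and EDA is exon 33 (270 nt; chr1:71603660-71603929).
Fn1 EDB: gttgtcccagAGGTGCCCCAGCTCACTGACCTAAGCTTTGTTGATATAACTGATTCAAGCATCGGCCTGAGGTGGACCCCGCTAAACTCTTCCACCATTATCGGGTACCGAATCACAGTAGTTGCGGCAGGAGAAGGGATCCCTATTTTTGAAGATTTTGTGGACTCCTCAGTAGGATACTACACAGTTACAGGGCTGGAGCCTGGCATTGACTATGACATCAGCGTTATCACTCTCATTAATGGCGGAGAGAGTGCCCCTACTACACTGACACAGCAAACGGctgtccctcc
Fn1 EDA: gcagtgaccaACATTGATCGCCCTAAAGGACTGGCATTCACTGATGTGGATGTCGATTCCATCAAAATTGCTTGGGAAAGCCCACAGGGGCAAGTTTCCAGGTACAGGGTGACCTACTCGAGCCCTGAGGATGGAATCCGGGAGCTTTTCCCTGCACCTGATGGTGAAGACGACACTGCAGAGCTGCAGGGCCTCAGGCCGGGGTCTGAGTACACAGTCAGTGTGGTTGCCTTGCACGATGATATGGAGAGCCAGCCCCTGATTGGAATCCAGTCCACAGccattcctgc
Fn1-201 is the only annotated transcript with EDB. It held 68.3% of the full-length coding TPM in replicate 1 and 63.6% in replicate 2 among the 7 transcripts that span the exon, a mean of 65.9% ± 3.31. EDA was in transcripts holding 92.6% and 94.4% (93.5% ± 1.27). Fn1-201 also holds EDA, so among these 7 transcripts the EDA share cannot fall below the EDB share. That order follows from the annotation and is not a result of the 2 libraries. The EDA value depends on the class of transcript: Fn1-202 spans the exon and skips it, and with transcripts of any class counted the share was 57.2% and 54.5%, while that of EDB was 61.4% and 56.3%. Fn1-202 does not reach EDB, so it lowers the EDA share alone, and the any-class shares of the exons rest on different sets of transcripts.

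The variable region of Fn1 lies in exon 40 and consists of a first stretch of 75 nt (chr1:71597673-71597747) and a second of 285 nt (chr1:71597388-71597672). The first stretch is printed because it encodes the connecting-segment site that integrins with the Itga4 subunit bind.
Fn1 variable region, first stretch: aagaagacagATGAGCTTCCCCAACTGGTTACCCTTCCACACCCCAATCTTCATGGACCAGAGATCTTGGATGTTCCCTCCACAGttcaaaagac
Transcripts with the first stretch held 88.2% of the full-length coding TPM in replicate 1 and 81.4% in replicate 2, and those with the second stretch held 97.5% and 94.6%. With transcripts of any class the shares were 93.2% and 90.2% for the first and 92.0% and 88.6% for the second. Most Fn1 RNA on coding transcripts therefore carried the variable region in both libraries. The subunit Itga4 measured 3.33 TPM in replicate 1 and 5.89 TPM in replicate 2, and Itga5, of the main fibronectin receptor, 57.9 and 48.6 TPM.

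Postn is spliced in the part of its coding region that follows the fasciclin domains. The optional exons are an 81-nt exon, exon 17 of the 22 of Postn-203 (chr3:54380412-54380492, plus strand), and an 84-nt exon, exon 20 of Postn-201 (chr3:54385671-54385754). They are printed because the leading Postn transcripts differ by them alone in their coding region.
Postn 81-nt exon: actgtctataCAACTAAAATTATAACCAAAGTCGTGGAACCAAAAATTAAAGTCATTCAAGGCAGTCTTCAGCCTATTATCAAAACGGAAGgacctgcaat
Postn 84-nt exon: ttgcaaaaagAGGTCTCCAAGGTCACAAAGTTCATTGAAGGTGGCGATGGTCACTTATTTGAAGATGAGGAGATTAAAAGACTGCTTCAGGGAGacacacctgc
Postn-203, with the 81-nt exon alone, held 40.9% of the gene's TPM in replicate 1 and 36.4% in replicate 2. Postn-201, with the 84-nt exon alone, held 28.2% and 25.3%, and Postn-204, with neither, held 23.6% and 22.0%. Postn-202, which has both, was listed at 0 in both libraries. Of the full-length coding TPM, transcripts with the 81-nt exon held 44.1% and 43.5% (43.8% ± 0.450) and those with the 84-nt exon 30.5% and 30.3% (30.4% ± 0.134). These shares differed by under 1 percentage point between the libraries, and the 81-nt exon was the more often kept of the pair in both. With transcripts of any class they were 42.6% and 37.7% for the 81-nt exon and 28.7% and 26.2% for the 84-nt exon. The incomplete transcript Postn-206, of 655 nt, went from 233 counts (4.72% of TPM) in replicate 1 to 878 counts (13.9%) in replicate 2. With full-length coding transcripts alone Postn measured 307 and 320.0 TPM (314 ± 8.81), and its log2 ratio between libraries was 0.06 in place of 0.20.

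Tnc has a variable stretch of fibronectin type III modules that is included by alternative splicing. In the annotation 1 optional module of 273 nt, exon 14 of the 26 of Tnc-203 (chr4:63984460-63984732, minus strand), separates Tnc-203 from the other long transcripts, and it is printed because its share differed most between the libraries.
Tnc 273-nt exon: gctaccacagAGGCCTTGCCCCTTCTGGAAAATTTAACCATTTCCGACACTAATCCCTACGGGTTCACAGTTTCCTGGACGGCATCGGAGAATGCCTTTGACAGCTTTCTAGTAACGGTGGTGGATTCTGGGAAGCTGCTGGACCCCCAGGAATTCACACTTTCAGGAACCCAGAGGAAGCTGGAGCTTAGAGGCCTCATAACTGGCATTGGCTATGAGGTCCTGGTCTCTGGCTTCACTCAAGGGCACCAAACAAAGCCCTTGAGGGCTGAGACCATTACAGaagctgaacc
Tnc-203 held 26.8% of the TPM of the spanning transcripts in replicate 1 and 17.1% in replicate 2 (22.0% ± 6.87), from 1106 and 865 counts. The transcript without it that led, Tnc-204, held 68.3% and 68.2% of the gene, and Tnc-201, also without it, held 4.91% and 12.9%. The credibility intervals of the TPM of Tnc-201 (0.0069 to 3.45 and 0.906 to 5.15) and of Tnc-203 (4.45 to 7.36 and 3.05 to 5.18) overlapped between the libraries, so neither transcript differed beyond its interval. In posterior means Tnc-204 held 64.8% and 67.7% of the gene.

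Smoc1 is spliced at a stretch of 33 nt (11 codons; chr12:81150619-81150651, plus strand) that separates Smoc1-202 from Smoc1-201.
Smoc1 33-nt stretch: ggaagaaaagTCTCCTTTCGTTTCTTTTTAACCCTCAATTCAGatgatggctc
Smoc1-202 held 30.6% of TPM in replicate 1 and 29.4% in replicate 2, and Smoc1-201 the other 69.4% and 70.6%, on the low count of 509 and 680 for the whole gene. The intervals of Smoc1-201 (0.826 to 4.30 and 3.01 to 5.53 TPM) and Smoc1-202 (0.834 to 3.42 and 1.05 to 3.40 TPM) overlapped in both libraries. The split between them was thus not resolved. Smoc1-203, which skips another exon of 54 nt, was listed at 0. The other genes had a single main transcript. Thbs1-201 held 99.3% and 100%, Spp1-201 96.8% and 94.6%, and Sparcl1-201, the only one annotated, 100%. In deposited posterior means, which pull low transcripts upward, Smoc1-201 held 49.7% in replicate 1 and 64.0% in replicate 2. Smoc1-203 held 12.2% and 3.37% in them, and Spp1-201 91.7% and 87.2%.

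**Figure D4:**
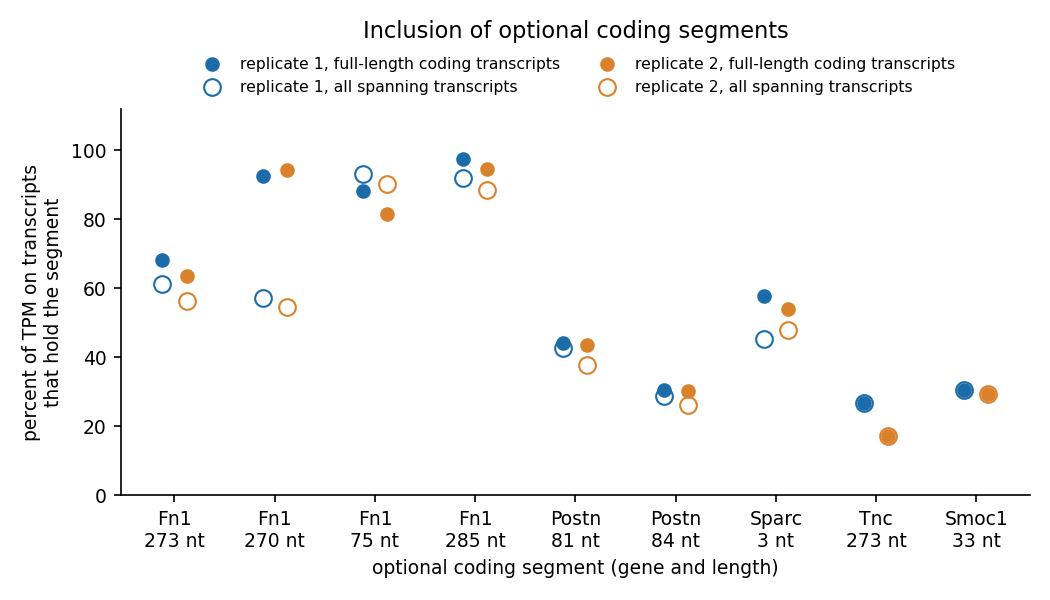
Percent of TPM on transcripts that hold each optional coding segment (gene and length in nt on the horizontal axis), among full-length coding transcripts that span it (filled) and among all spanning transcripts (open), for replicate 1 (blue) and replicate 2 (orange). The filled and open points lie furthest apart for the 270-nt EDA exon of Fn1 (93.5% and 55.9% on average), and the libraries lie furthest apart for the 273-nt exon of Tnc.

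Genes related to the 9 by family or function were taken from 10 lists with 74 genes, of which 62 reached 1 TPM in both libraries. Of the 63 that averaged at least 1 TPM, 6 (9.52%) were past 1.5-fold, against 12.6% of all genes and 7.38% of protein-coding genes. Higher in replicate 1 were Npnt (17.1 and 9.33 TPM), Itga9 (7.26 and 2.48 TPM) and Itgb5 (41.0 and 22.4 TPM). Higher in replicate 2 were Spock3 (1.27 and 2.050 TPM), Ibsp (0.860 and 1.35 TPM) and Itga4. Intervals overlapped between the libraries for Spock3 and Ibsp and were apart for the other 4. Nephronectin, encoded by Npnt, is a ligand of integrins with the Itga8 subunit, and Itga9 encodes a receptor subunit for tenascin C and osteopontin.

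Within the families, Sparc and Sparcl1 stood over all 8 genes in the list of SPARC and follistatin relatives, while Smoc1 did not. Smoc2, the closest paralog of Smoc1, measured 28.0 TPM ± 2.76, 4.43-fold over Smoc1. Fstl3, an activin-binding relative of Fstl1, measured 20.2 TPM ± 2.998, 17.6-fold under Fstl1, and Fstl4 and Spock2 measured 6.27 ± 1.44 and 6.26 ± 0.926 TPM. By their means, the other thrombospondins lay at levels like that of Thbs1: Thbs4 at 28.9 ± 1.27, Thbs2 at 26.5 ± 1.70 and Thbs3 at 19.6 ± 0.672 TPM. None of these 3 was past 1.5-fold between the libraries. Each of the pairs with Thbs1 had a mean log2 ratio within 1 SD of 0, but that SD includes the gap of Thbs1 between the libraries. In replicate 1 Thbs1 measured 28.3 TPM, beside 28.0, 27.7 and 20.1 TPM for Thbs4, Thbs2 and Thbs3. In replicate 2 it measured 15.9 TPM, under their 29.8, 25.3 and 19.2 TPM. Comp, the cartilage thrombospondin, measured 2.49 TPM ± 0.410.

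Tnc was the only tenascin well above 1 TPM. Tnxb, of loose connective tissue, measured 2.16 TPM ± 0.205, 10.4-fold under Tnc, and Tnn and Tnr measured 0.155 and 0.125 TPM. Postn stood 12.1-fold over Tgfbi, the other secreted fasciclin-domain gene (29.5 TPM ± 4.94). Among the membrane relatives, Stab1 of macrophages and sinusoidal endothelium measured 33.6 TPM ± 5.59 and Stab2 measured 0.890 TPM ± 0.325. Spp1 was the only gene of its family of acidic phosphoproteins at 1 TPM in both libraries. Its bone relatives Ibsp, Dmp1 and Mepe averaged 1.11, 0.080 and 0.010 TPM, and Dspp was at 0. In the CCN family of matricellular growth-factor modulators, 5 of 6 reached 1 TPM. Ccn1 measured 47.3 ± 4.90, Ccn4 45.2 ± 0.198, Ccn2 29.2 ± 2.95 and Ccn3 2.18 ± 0.290 TPM.

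**Figure D5:**
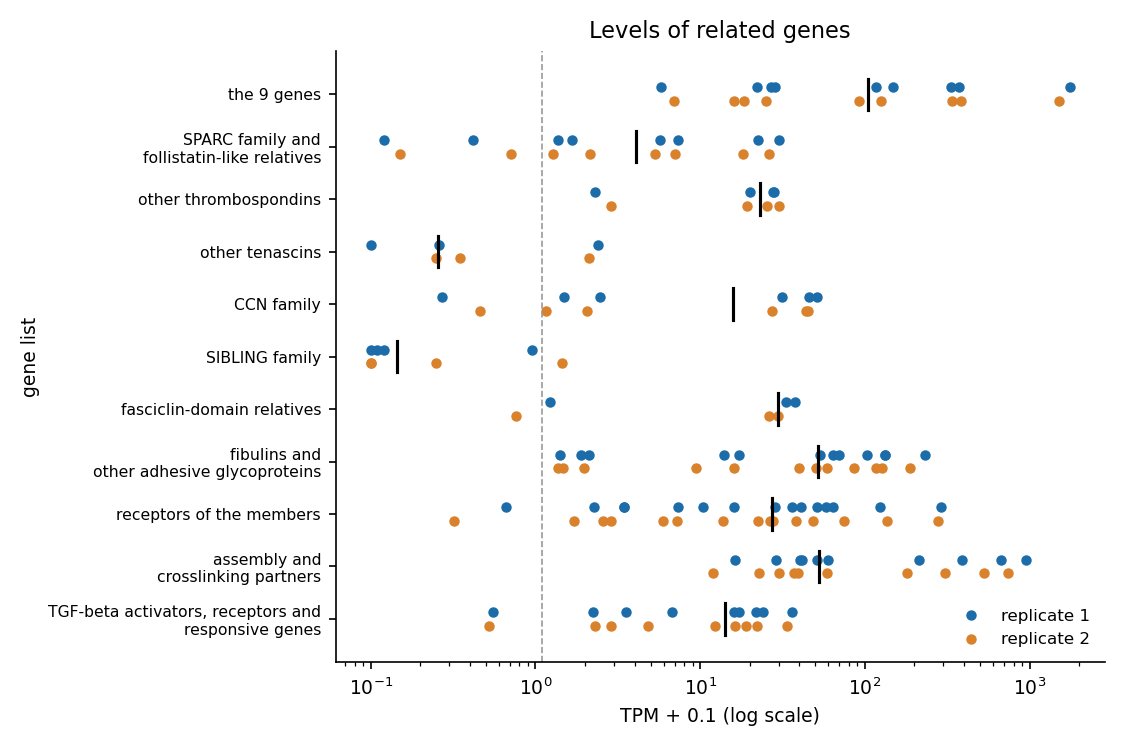
TPM + 0.1 on a log axis for every gene of the 9 and of 10 lists of related genes, replicate 1 in blue above and replicate 2 in orange below, with a black bar at each list's median of the mean TPM and a dashed line at 1 TPM. The 9 genes have the highest median (104 TPM) of the lists drawn, and the tenascin and SIBLING lists the lowest (0.155 and 0.045 TPM). Genes and lists were chosen with earlier results of these data known, so the ranking holds for these lists only.

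Receptors of these proteins were nearly all detected, with 14 of 15 at 1 TPM or more in both libraries and a median of 27.4 TPM. Itgb1, the beta subunit shared by most matrix-binding integrins, led at 284 TPM ± 7.83. Next came the thrombospondin receptors Cd36 at 129.6 ± 8.27 TPM and Cd47 at 69.4 ± 7.88 TPM. Itga5 measured 53.2 TPM ± 6.58. Of the 14 receptors that averaged 1 TPM or more, 11 were higher in replicate 1, beside 61.8% of protein-coding genes. The 3 higher in replicate 2 were Cd36 and Cd47, by log2 ratios of 0.13 and 0.23, and Itga4.

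Genes for matrix assembly and crosslinking were all at 1 TPM or more (10 of 10), and all 10 were higher in replicate 1, against 61.8% of protein-coding genes, with a median log2 ratio of -0.35 and none past 1.5-fold. The fibrillar collagens Col3a1 (847 TPM ± 149), Col1a1 (599.7 TPM ± 96.3) and Col1a2 (345 TPM ± 57.7) led, followed by the transglutaminase Tgm2 (196 TPM ± 24.3). The 3 collagen genes also stand in the fibroblast marker list. Among fibulins and other adhesive glycoproteins, 12 of 12 reached 1 TPM, led by the phosphatidylserine-binding Mfge8 at 209.5 TPM ± 32.4. The elastic-fibre genes Fbln2, Emilin1 and Fbln1 measured 129 ± 3.04, 125 ± 11.98 and 94.9 ± 12.2 TPM. Fn1 lay beside Fbln2 (mean log2 ratio 0.07 ± 0.13) and 70.1-fold over vitronectin (Vtn, 1.84 TPM ± 0.057). In the TGF-beta list 8 of 9 genes reached 1 TPM. The ligands Tgfb2 and Tgfb3 measured 34.9 ± 1.95 and 20.4 ± 1.97 TPM and the receptors Tgfbr2 and Tgfbr1 22.9 ± 1.44 and 16.6 ± 0.757 TPM.

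The genes most like each of the 9 were found as the 2 protein-coding genes at the smallest Euclidean distance over log2(TPM + 0.1) in the 2 libraries, so likeness here is little more than a shared level. They were Mif and Atp5h for Sparc, Rsrp1 and Sub1 for Postn, Psma3 and Pam for Fstl1, and Surf4 and Rpn2 for Fn1. Those of Sparcl1 were Myo18a and Tuba1c, those of Tnc Rexo4 and Mettl6, and those of Spp1 Ankzf1 and Fbn2. For Smoc1 they were Spock2 and Il17ra, and for Thbs1 Smap1 and Prrc2b. The distances ran from 0.0072 for Rexo4 to 0.17 for the neighbours of Thbs1, which were the farthest.

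Genes on the opposite strand overlap Fn1 (Apol7d), Sparcl1 (Gm26703), Tnc (8030451A03Rik) and Thbs1 (Gm29233). The sources used here do not give a strand setting for the counting, so reads of such partners could not be told apart. Their counts were small beside those of the 9 genes: 15.6 and 9.32 for Apol7d, 10 and 7 for Gm26703, 8.17 and 13.1 for 8030451A03Rik, and 2 and 1 for Gm29233. On the same strand, Gm42793 overlaps Spp1 by 1252 nt and has no value in these data, so its reads could not be counted apart. Mir3067 overlaps Smoc1 by 84 nt, with 0 counts in both libraries.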

How the data were processed

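Per the labels' protocols, each library started from 10 ng of mirVana-extracted RNA over 200 nt. Per the file headers and deposited notes, reads were quantified on mm10 with annotation M4, 1 library per table. For the aligner and quantification tool: not given in the sources used here, though the columns carry RSEM's names. The deposited tables give estimated counts (not normalized), TPM over all rows with spike-ins, credibility bounds of TPM used as a signal per gene, and the percent of a gene's TPM on each transcript. Effective length, also deposited, equals transcript length minus 99 bases. At 1500 nt, a count of 0 allows up to 3 counts, or 0.0802 and 0.0722 TPM in replicates 1 and 2. Reads carry no molecular identifiers, so intervals and floors cover counting and assignment error only.

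Names, biotypes, coordinates and sequences came from GENCODE M21 on GRCm38, by identifier without version; 42462 of 43346 genes matched, and 52 of the 55 transcripts had the same length there (Postn-203, Postn-207 and Sparcl1-201 did not). Numeric and spike-in rows stayed out of comparisons. Ratios between libraries are of TPM + 0.1 with a mean of at least 1 TPM. The fold rule was run on simulated counts with counting noise only. They hold no variation between pools, so they do not give the rule's error rate in these libraries. A segment is an internal coding stretch held by some and skipped by other full-length coding transcripts that span it. The members and lists were chosen with earlier results of these data known. Named genes are the 9, the 4 highest of each related list with every list gene past 1.5-fold, and the 2 nearest genes of each of the 9. Named transcripts hold at least 10% in either library or define a segment. Further names (Vtn, overlapping genes and single markers) were added after values were seen. Alternatives were posterior means, rescaled TPM, TMM (edgeR 4.0.16) and median-of-ratios (DESeq2 1.42.0) scaling of rounded counts, other pseudocounts, thresholds and filters, and, chosen after seeing the data, full-length coding transcripts only and segment shares over all spanning transcripts. Python 3.11.15, pandas 2.3.3 and R 4.3.3 were used.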

Additional observations from a re-analysis of the deposited data

How the results depend on the processing

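The numbers of the 9 genes at 1 TPM, past 1.5-fold and with a coding leading transcript stayed within 1.5 times under the alternatives tried, except that 0 of the 9 were past 2-fold. Over all genes 1876 were past 1.5-fold, 1069 past 2-fold and 6696 past 1.5-fold with no filter on low values. Of the 8 neighbouring pairs 5 differed with both libraries and 7 to 8 when either library was used alone, where no SD exists and only the intervals are compared. With full-length coding transcripts alone 6 differed. For that count the whole-gene intervals were scaled to the coding sum, since no interval of the sum itself is given. Rescaling to nuclear protein-coding genes without globins raised every level by a common factor per library, and counts per kilobase of the longest coding transcript put Sparc at 667, Fn1 at 65.2 and Sparcl1 at 75.2. No direction of a gene between the libraries reversed. Thbs1 stayed past 1.5-fold at log2 ratios of -0.83 to -0.77. No ratio between the libraries can be had with either left out. No paired analysis was possible because the labels give a single group, so the replicate numbers pair nothing. Depth limits Spp1 and Smoc1, whose intervals spanned 13.1% to 17.0% of their TPM.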

Other observations

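Markers of other cells that the hearts hold, or that dissection could bring along, were summed in the same way. The 5 endothelial markers summed to 229 TPM in replicate 1 and 217 TPM in replicate 2, the 5 of smooth muscle and pericytes to 136 and 117 TPM, the 4 of valve mesenchyme to 65.7 and 51.2 TPM and the 4 of epicardium to 88.8 and 91.1 TPM. The 6 skeletal muscle markers, led by Ckm and Acta1, which heart muscle also expresses, summed to 2018 and 2147 TPM. Of them, Myh3 (1.23 and 3.58 TPM), Myh8 (2.14 and 6.04 TPM) and Myog (1.66 and 2.58 TPM) were past 1.5-fold and higher in replicate 2. The 5 cartilage markers summed to 15.7 and 20.1 TPM, the 5 hepatocyte markers to 25.1 and 24.4 TPM and the 4 of Schwann cells and neurons to 7.80 and 9.82 TPM.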
